A study of Rattus norvegicus with 12 samples.

Results

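The 10 genes described here were listed as higher in forebrain RNA of rats after a stay in an unfamiliar environment. None of them is usually named as a neuronal activity gene. They are Gprc5a, Tnfrsf25, Tnfrsf12a, Tslp, Frmd6, Mtcl1, Rundc1, Tent5a, Nedd9 and Nedd4l. They were taken as every probe set whose platform annotation gives exactly 1 of these symbols, which found 15 of the 31042 probe sets of transcripts on the array and all 10 of the 10 listed genes. Rundc1 and Tent5a have 3 probe sets each, Nedd9 has 2, and the other 7 genes have 1. Where a gene has several, the one with the highest mean over the 12 animals leads and is called its lead probe set. Tent5a was higher at only 1 of its 3 probe sets, which is not its lead. The genes were picked because of their difference between the exposed and the control animals. Their differences are therefore given as a description and carry no test.

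The exposed group was 6 male Long Evans rats, 6 weeks old, that spent 3 hours among objects varied in shape and colour in surroundings new to them. The control group was 6 rats of the same strain, sex and age without that stay. All 12 came from single housing, and the labels name no transgene or drug. Forebrain total RNA of each animal was measured on 1 Affymetrix rat expression array. Values are intensities in arbitrary linear units, and differences are exposed minus control on the log2 scale, followed by ± the SE from limma (n = 6 animals in each group).

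The tissue label was set against marker genes. Of the forebrain markers, 10 of 13 were measured, and Bcl11b (2276 in exposed and 2279 in control animals), Neurod6 (1842 and 1969) and Lhx2 (986 and 963) were well above the intensity of 53.9 that serves as the floor. These were the brightest of that list, and the dimmest, Emx2, averaged 179 in exposed and 157 in control animals. Of 10 measured cerebellar and hindbrain markers 0 passed the test between the groups. The cerebellar granule cell gene Gabra6 was at the floor on 9 of the 12 arrays but reached 94.1 in an exposed and 122 in a control animal, and the Purkinje cell gene Pcp2 averaged 85.4 in exposed and 77.3 in control animals. Cbln1 of the same list was brighter, at 544 in exposed and 526 in control animals, so the list was not at the floor as a whole. Hoxb3 (109 and 108), Hoxd3 (110 and 109) and Hoxc4 (81.2 and 83.6) of that list also lay above the floor, and Hoxa5 did not. Median array intensity lay between 235 and 245 over the 12 animals. In bulk tissue, fewer cells of a type and less RNA per cell cannot be told apart.

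Apart from Tnfrsf25 and Tnfrsf12a, the 10 genes belong to unrelated families. Tnfrsf25 and Tnfrsf12a are receptors of the tumour necrosis factor superfamily, which recruit adaptors of the Tradd and Traf families when their ligand binds. Tslp is a cytokine related to interleukin 7, best known from epithelia. Frmd6, Mtcl1 and Nedd9 act at the cell cortex, on microtubules and at focal adhesions. Tent5a and Nedd4l act on RNA tails and on protein turnover.

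Over the 10 lead probe sets the log2 difference had a median of 0.49 and ran from 0.04 for Tent5a to 0.93 for Gprc5a, against a median of 0.00 over all 14217 genes at their brightest probe set. Every exposed animal lay above every control animal at 7 of the 10 lead probe sets and at 9 of all 15, and the same was true of 1.98% of all probe sets. Every exposed animal lay below every control animal at 0 of the 15 and at 0.725% of all. Since the genes were chosen from this contrast, nothing is read from that share. At 14 of the 15 probe sets the difference was above 0. Counting the gene itself, 21 of the 14217 genes were at least as far above control as Gprc5a, while 433 were at least as far as Nedd4l.

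**Figure D1:**
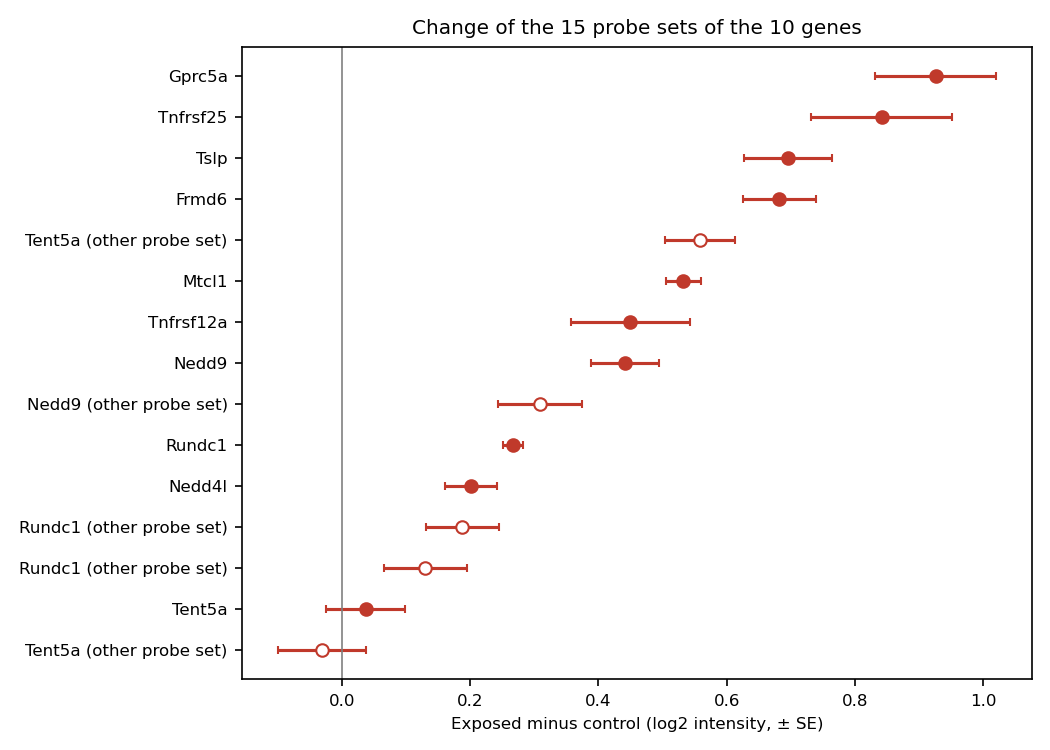
Log2 difference between exposed and control animals (x axis, ± SE from limma, n = 6 in each group) for the 15 probe sets of the 10 genes, ordered by size. Filled points are lead probe sets and open points are the other probe sets of Rundc1, Tent5a and Nedd9; Gprc5a stands highest at 0.93, and 2 of the 3 Tent5a probe sets lie near 0.

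Among the receptors, Gprc5a, an orphan receptor coupled to G proteins that retinoic acid induces, had the largest difference. Its intensity ran from 144 through a median of 164 to 190 in exposed animals, and from 70.5 through 87.7 to 101 in control animals. The groups did not overlap, and the lowest exposed animal was 1.43 times the highest control animal. The log2 difference was 0.93 ± 0.09 (1.90-fold). Gprc5a is dim on these arrays, since 35.9% of probe sets had a lower mean. The other measured receptors of its family, Gprc5b (log2 difference -0.04 ± 0.05, adjusted p = 0.931 in limma) and Gprc5c (-0.06 ± 0.09, adjusted p = 0.971), did not pass, and 0 of the 2 measured genes of this list were called.

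Tnfrsf25, the death receptor known on T cells as the receptor of Tnfsf15, had intensities from 291 through a median of 398 to 453 in exposed animals. In control animals they ran from 186 through 214 to 255. The groups did not overlap, although exposed animal 3, at 291, lay closer to the control animals than to the exposed median. The log2 difference was 0.84 ± 0.11 (1.79-fold), and the spread within the exposed group, a coefficient of variation of 14.5%, was the widest of the 15 probe sets.

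Tnfrsf12a, also called Fn14, is the receptor of the cytokine Tnfsf12 and has no death domain. It had intensities from 157 through a median of 205 to 238 in exposed animals and from 140 through 146 to 166 in control animals. The groups overlapped by 1 animal, exposed animal 5 at 157, which lay below control animal 2 at 166. This gave a log2 difference of 0.45 ± 0.09 (1.37-fold).

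Tslp, the only secreted protein of the 10, had the lowest intensities of the lead probe sets. They ran from 98.3 through a median of 113 to 124 in exposed animals, and from 60.2 through 69.4 to 76.5 in control animals. The groups did not overlap, and the log2 difference was 0.70 ± 0.07 (1.62-fold). With the floor at the 40th percentile (an intensity of 148) instead of the 20th, every Tslp value fell below it and the difference became 0.00, while that of Gprc5a became 0.16. The deposited table used here has no detection call, so whether these 2 probe sets stood above background was not tested.

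**Figure D2:**
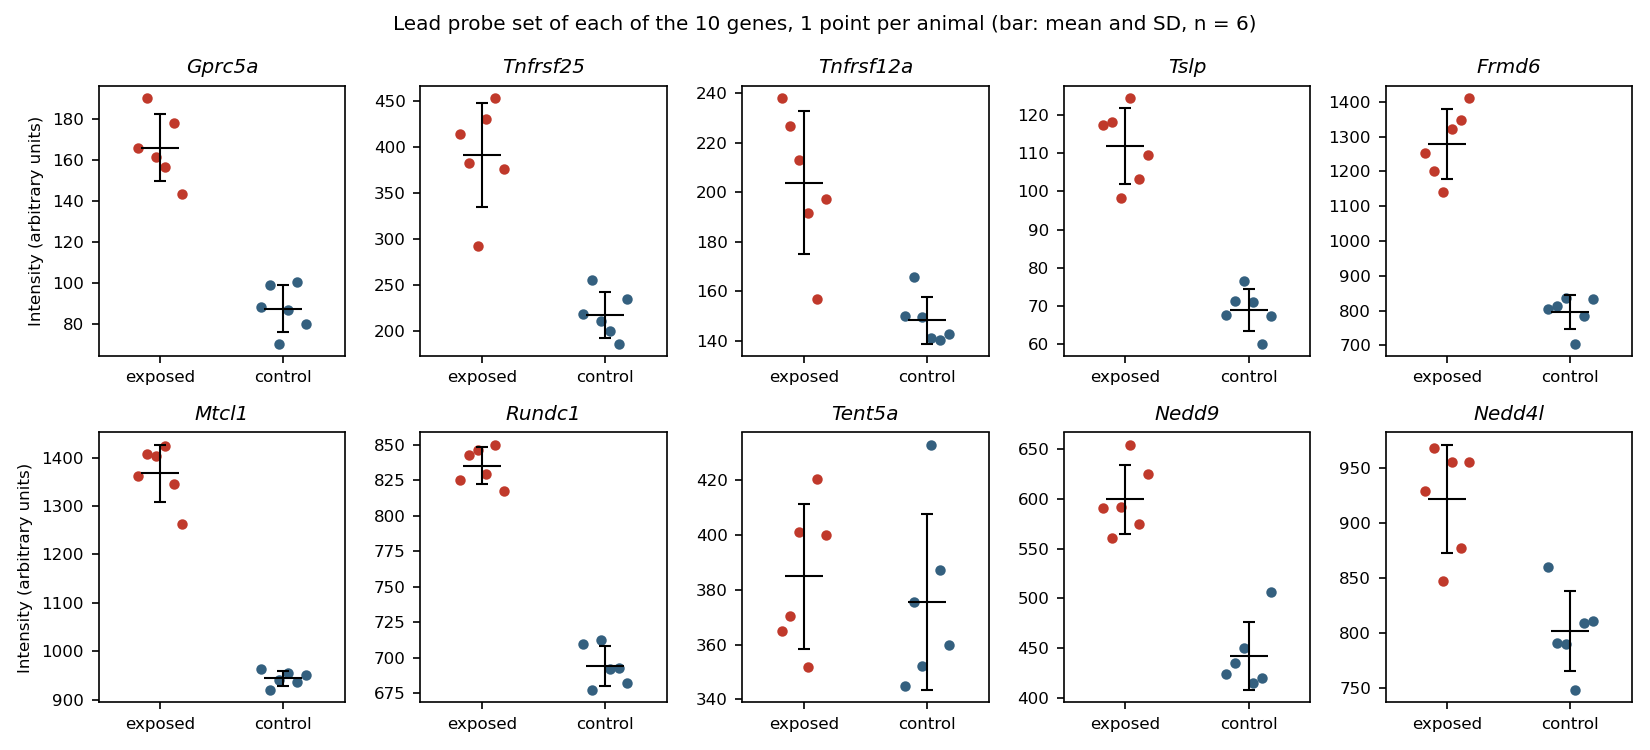
Intensity (y axis, arbitrary linear units, a scale of its own for each gene that does not start at 0) at the lead probe set of each of the 10 genes. Each point is 1 animal, exposed on the left and control on the right, and the bars are mean and SD of 6 animals; the groups separate in 7 panels, overlap by 1 animal for Tnfrsf12a and Nedd4l, and overlap throughout for Tent5a.

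Among the genes of the cytoskeleton and of adhesion, Frmd6, a FERM domain protein also called willin and placed upstream of the Hippo kinases, had the largest difference. Its intensity ran from 1140 through a median of 1288 to 1410 in exposed animals and from 705 through 809 to 836 in control animals. The lowest exposed animal was 1.36 times the highest control animal, and the log2 difference was 0.68 ± 0.06 (1.60-fold). Frmd6 was a bright probe set, with 80.6% of probe sets below it.

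Mtcl1, which crosslinks microtubules and binds the polarity kinase Mark2, had intensities from 1262 through a median of 1383 to 1423 in exposed animals. In control animals they ran from 920 through 946 to 963, a coefficient of variation of 1.61%. The groups were separated by 1.31-fold between the lowest exposed and the highest control animal. This made a log2 difference of 0.53 ± 0.03 (1.45-fold).

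Nedd9, a scaffold of the Cas family that binds focal adhesion kinase and Src, has 2 probe sets. At the lead one the intensity ran from 561 through a median of 591 to 654 in exposed animals and from 416 through 430 to 507 in control animals. Control animal 6, at 507, was the highest of its group, and the groups still did not overlap. The log2 difference was 0.44 ± 0.05 (1.36-fold) there and 0.31 ± 0.07 (1.24-fold) at the dimmer probe set, where exposed animals ran from 244 to 294 and control animals from 188 to 239.

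Among the genes of RNA and protein turnover, the 3 probe sets of Tent5a, a poly(A) polymerase outside the canonical family, gave different pictures. At its lead probe set the intensity ran from 352 through a median of 385 to 421 in exposed animals and from 345 through 368 to 433 in control animals, and the groups overlapped throughout. The log2 difference was 0.04 ± 0.06 (1.03-fold). At the second probe set it ran from 248 through 277 to 302 in exposed animals and from 176 through 186 to 207 in control animals, with no overlap and a log2 difference of 0.56 ± 0.05 (1.47-fold). At the third and dimmest, averages were 82.5 ± 5.64 in exposed animals and 84.5 ± 9.00 in control animals (SD, n = 6 each), a log2 difference of -0.03 ± 0.07. So Tent5a was higher at 1 of its 3 probe sets. Relative to the lead probe set of the same animal, the second one stood at -0.47 ± 0.14 in exposed animals and at -0.99 ± 0.16 in control animals (log2, SD, n = 6 each). The position of each probe set on the transcript was not analysed here.

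Nedd4l, a ubiquitin ligase that removes the epithelial sodium channel from the membrane and is inhibited by the kinase Sgk1, had the smallest difference after Tent5a. Its intensity ran from 847 through a median of 942 to 968 in exposed animals and from 748 through 800 to 860 in control animals. The groups overlapped by 1 animal, exposed animal 3 at 847, just below control animal 1 at 860. Its log2 difference was 0.20 ± 0.04 (1.15-fold).

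Rundc1, a protein with a RUN domain, combined a small difference with little spread within the groups. At its lead probe set the intensity ran from 818 through a median of 836 to 850 in exposed animals and from 677 through 692 to 712 in control animals. The coefficient of variation was 1.56% in exposed and 2.04% in control animals, and the log2 difference was 0.27 ± 0.02 (1.20-fold) with no overlap. At its other probe sets the log2 difference was 0.19 ± 0.06 and 0.13 ± 0.06. At the dimmest of the 3, exposed animal 3, at 322, lay level with the lowest control animal, also 322.

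**Figure D3:**
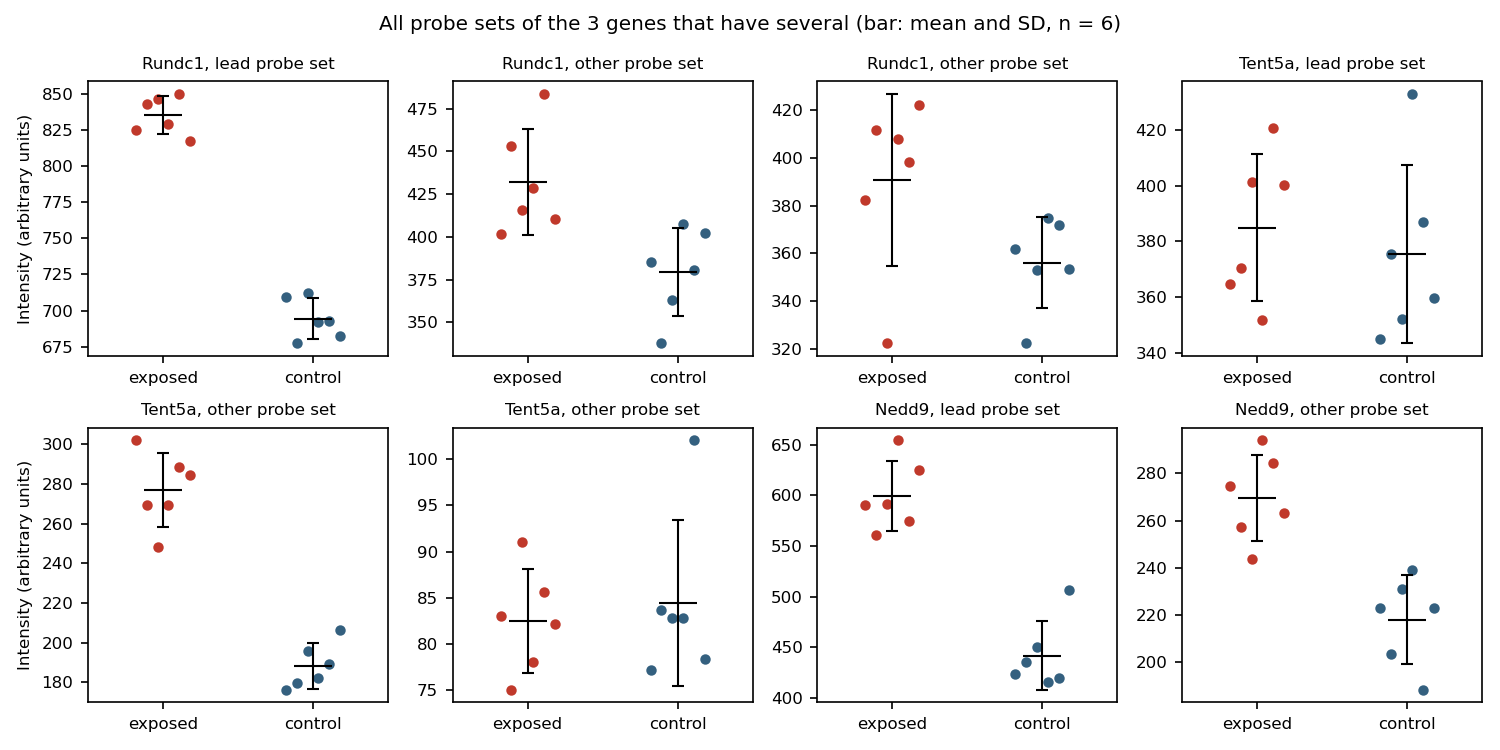
Intensity (y axis, arbitrary linear units, a scale of its own for each panel that does not start at 0) at every probe set of Rundc1, Tent5a and Nedd9, the 3 genes with several. Each point is 1 animal, exposed on the left and control on the right, and the bars are mean and SD of 6 animals; the second Tent5a probe set separates the groups (277 against 188) while the lead one does not (385 against 375).

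The animals carry numbers 1 to 6 in each group, whose meaning the labels do not give. Within the animals numbered 1 to 3 the log2 difference of the lead probe sets ran from 0.08 for Tent5a to 1.01 for Gprc5a, and within those numbered 4 to 6 from -0.01 for Tent5a to 1.02 for Tnfrsf25. For Tnfrsf25 it was 0.66 in the first set and 1.02 in the second, and for Frmd6 0.55 and 0.81. For Mtcl1 it was 0.56 and 0.50, and for Rundc1 0.26 and 0.27. These subsets hold the animals on which the genes were picked.

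Upstream sequence was searched for a set of short motifs. Egr1 and Egr2, transcription factors that bind GC-rich sites, were themselves higher in exposed animals (log2 difference 1.27 ± 0.04 and 3.63 ± 0.14). Whether they act on the 10 genes was not tested. RefSeq windows on GRCr8 matched 9 of the 10 genes, with 2 windows for Tslp, and Gprc5a was not matched. The 250 bases before each annotated start were searched on both strands. The EGR site GCGNGGGCG was found in 3 of the 10 windows, those of Frmd6, Mtcl1 and Tnfrsf12a, and in 4.29% of all 33469 windows. These stretches are printed because they hold that site, which is in capitals and overlaps the shorter GC box GGGCGG in Frmd6 and Tnfrsf12a.
Frmd6, chr6:95081914-95081985, plus strand: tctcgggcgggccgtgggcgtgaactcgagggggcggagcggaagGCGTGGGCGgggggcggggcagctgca
Mtcl1, chr9:113888183-113888281, minus strand: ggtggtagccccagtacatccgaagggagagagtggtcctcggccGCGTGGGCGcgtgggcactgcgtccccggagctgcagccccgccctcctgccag
Tnfrsf12a, chr10:13213649-13213748, minus strand: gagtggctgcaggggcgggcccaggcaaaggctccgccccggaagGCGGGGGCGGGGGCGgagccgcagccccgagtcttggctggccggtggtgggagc

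The Tnfrsf12a stretch holds 2 overlapping copies. The GC content of the 3 windows was 75.6% for Frmd6, 73.6% for Mtcl1 and 60.8% for Tnfrsf12a, against a median of 51.2% over all windows. High GC content was not particular to them. Without the site, Nedd4l had 82.8% and Tent5a 62.0%, and 8 of the 10 windows lay above that median. The log2 differences of Frmd6, Mtcl1 and Tnfrsf12a were 0.68, 0.53 and 0.45. Without the site, those of Tnfrsf25 (0.84) and Tslp (0.70) were larger. Those of Nedd9 (0.44), Rundc1 (0.27), Nedd4l (0.20) and Tent5a (0.04), also without it, were smaller. The CRE TGACGTCA was found in 0 of the 10 windows and in 1.59% of all, and the AP-1 site TGANTCA in 0 of the 10 and in 6.34% of all. The GC box GGGCGG was found in 7 of the 10 and in 30.5% of all, and the TATA box TATAAA in 2 of the 10 (Tent5a and Tslp) and in 12.9% of all. A match is a description of letters and not of binding, and the shares over all windows were not matched for GC content.

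The partners and relatives of the 10 genes were read from 14 lists, which hold none of the 10 and were tested in the fit over all probe sets. Of their 223 genes 188 were measured, 8 rose and 0 fell, taking an adjusted p under 0.05 in limma as passing. That is 4.26% of them, against 2.62% of all 14217 genes that rose and 0.844% that fell. Over all probe sets 2.56% passed, made up of 1.97% higher and 0.599% lower. Their median log2 difference was 0.00.

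The receptor families as such gave no call. Of the tumour necrosis factor receptors 0 of 17 measured genes passed in limma, with a median log2 difference of -0.00, and 0 of 12 ligands did, with a median of 0.00. Of these, 3 receptors and 4 ligands lay at the floor on all 12 arrays and could not pass. The receptor furthest from 0 was Tnfrsf11b, a decoy receptor named after its value was seen, at -0.46 ± 0.12 (adjusted p = 0.0769), with 6 of 6 exposed animals below every control. The ligand of Tnfrsf12a, Tnfsf12, had a log2 difference of -0.11 ± 0.05 (adjusted p = 0.398). Of the adaptors 2 of 14 rose and 0 fell, with a median of -0.00.

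Traf5 had intensities from 117 through a median of 146 to 187 in exposed animals and from 86.0 through 102 to 107 in control animals. It rose 1.48-fold (log2 0.56 ± 0.10, adjusted p = 0.0105), with 6 of 6 exposed animals above every control. Traf3 rose 1.17-fold at its brightest probe set (0.22 ± 0.04, adjusted p = 0.0171, 6 of 6), and its other probe set did not pass (0.05 ± 0.05, adjusted p = 0.856). The Traf5 call was lost with the floor at the 40th percentile (adjusted p = 0.947), and that of Traf3 with RNA quality as a term (adjusted p = 0.0788). Tradd and Traf2, the adaptors nearest to Tnfrsf25 and Tnfrsf12a, did not pass (log2 -0.15 ± 0.12, adjusted p = 0.736, and 0.02 ± 0.05, adjusted p = 1).

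Neither chain of the Tslp receptor passed. Crlf2 had a log2 difference of -0.01 ± 0.04 (adjusted p = 1) and Il7r of 0.15 ± 0.10 (adjusted p = 0.658). Of this pathway 2 of 15 measured genes rose and 0 fell, with a median of 0.05. Jak2, a kinase that cytokine receptors use, ran from 394 to 455 in exposed and from 329 to 372 in control animals and rose 1.20-fold (adjusted p = 0.00501, 6 of 6 above every control). Cish, a feedback inhibitor that STAT5 induces, rose 1.15-fold (adjusted p = 0.0380, 6 of 6), a call lost in 11 of its 22 alternatives, among them 9 of the 12 fits with 1 animal left out (up to 0.0892). Its other probe set averaged 97.0 in exposed and 96.8 in control animals, a log2 difference of 0.00 ± 0.05 (adjusted p = 1).

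Around Frmd6, 1 of 22 Hippo pathway genes rose and 0 fell, with a median of 0.02. The transcription factor Tead1 rose 1.10-fold (adjusted p = 0.0471), with 5 of 6 exposed animals above every control, and lost its call in 17 of 23 alternatives. Its other probe set did not pass (0.13 ± 0.05, adjusted p = 0.325). The kinase Lats2 had a log2 difference of 0.18 ± 0.05 (adjusted p = 0.0812), and Nf2 (0.02 ± 0.03) and Wwc1 (-0.01 ± 0.09) lay near 0. Of 5 measured Frmd relatives 0 passed. Around Mtcl1, 0 of 24 microtubule genes passed, including Mark2 (log2 0.08 ± 0.07, adjusted p = 0.790).

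Around Nedd9, 1 of 18 focal adhesion genes rose and 0 fell, with a median of 0.02. Paxillin, Pxn, an adaptor of focal adhesions, ran from 734 to 862 in exposed and from 616 to 681 in control animals and rose 1.20-fold (adjusted p = 0.00517, 6 of 6 above every control). Bcar1, the closest relative of Nedd9 in the list, had a log2 difference of 0.01 ± 0.04 (adjusted p = 1). The kinases Ptk2 (0.16 ± 0.11, adjusted p = 0.658) and Ptk2b (-0.35 ± 0.19, adjusted p = 0.495) did not pass.

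Around Nedd4l, 1 of 9 ligases and adaptors of its family rose and 0 fell. Smurf1, a ligase of the same family, rose 1.14-fold (adjusted p = 0.0390, 5 of 6 above every control) and lost its call in 13 of 23 alternatives, among them 11 of the 12 fits with 1 animal left out (up to 0.0932). Its other probe set did not pass (0.05 ± 0.05, adjusted p = 0.844). At its brightest probe set the relative Nedd4 (-0.06 ± 0.04, adjusted p = 0.722) and the adaptors Ndfip1 (-0.02 ± 0.03, adjusted p = 0.884) and Ndfip2 (-0.06 ± 0.07, adjusted p = 0.881) did not pass. Of 5 further Nedd4 probe sets 1 fell (-0.10 ± 0.02, adjusted p = 0.0466), with 6 of 6 exposed animals below every control.

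Of the substrates and regulators of Nedd4l 1 of 20 rose and 0 fell. Smad3, a transcription factor of transforming growth factor signalling, ran from 630 through a median of 650 to 686 in exposed animals and from 458 through 510 to 539 in control animals. It rose 1.30-fold (log2 0.38 ± 0.04, adjusted p = 0.000930, 6 of 6 above every control) and kept its call in all 23 alternatives run. A dimmer Smad3 probe set did not pass in limma (log2 difference 0.15 ± 0.10, adjusted p = 0.610). Sgk1, which phosphorylates Nedd4l, had a log2 difference of 0.58 ± 0.23 (adjusted p = 0.275), with 4 of 6 above every control. Exposed animals 1 to 3 ran from 2343 to 3382 and 4 to 6 from 5144 to 5571. Control animals ran from 2111 to 2493 and from 2931 to 3329. With these number sets or RNA quality as a term in limma, Sgk1 passed (adjusted p = 0.0185 and 0.0381). Of the relatives of Rundc1 0 of 14 passed and of those of Tent5a 0 of 12, with Tent5b and Tent5c at 0.04 ± 0.08 and 0.03 ± 0.08.

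**Figure D4:**
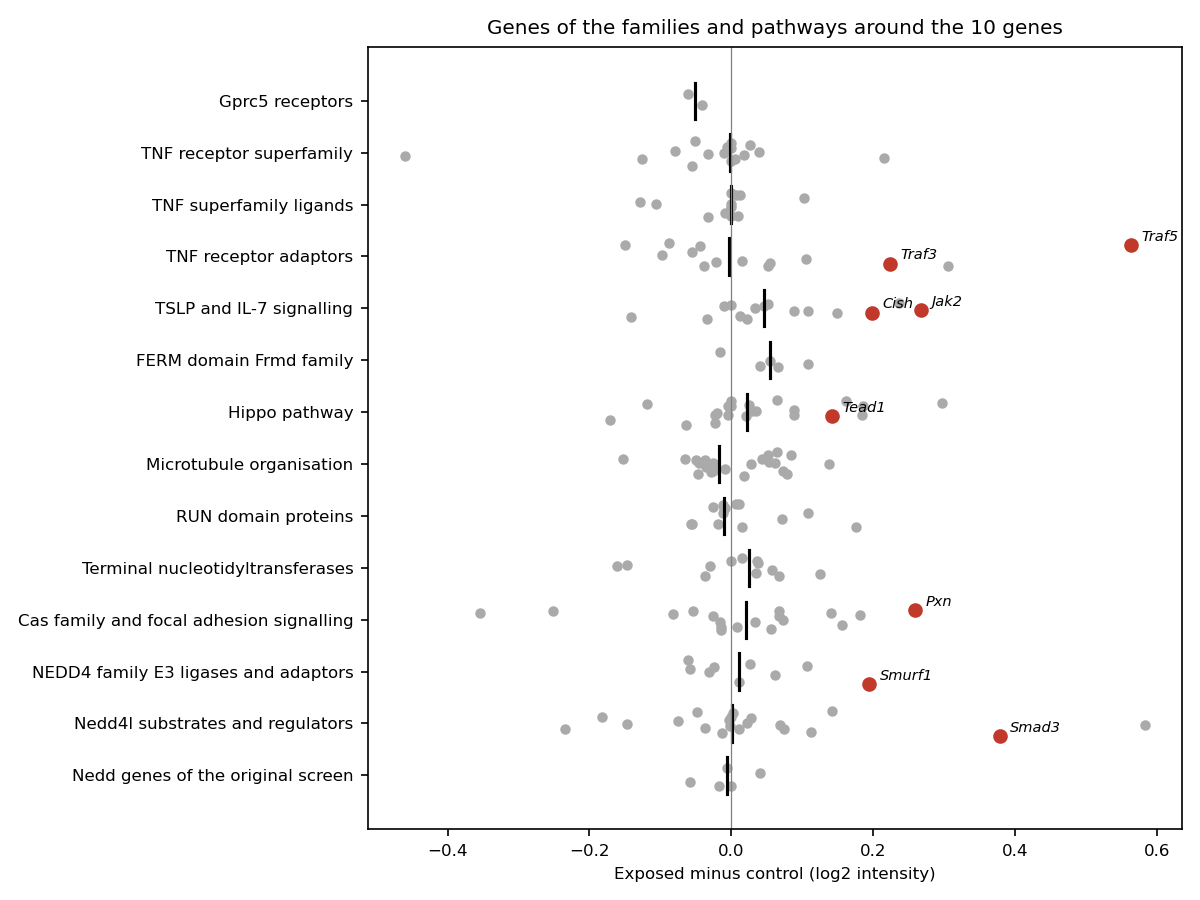
Log2 difference between exposed and control animals (x axis) of each measured gene of the 14 lists around the 10 genes, at its brightest probe set. Red points passed at an adjusted p under 0.05 in limma and are named, grey points did not pass, and black bars are list medians; the 8 red points all lie above 0 and the list medians lie between -0.05 and 0.05.

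Whether the 10 genes followed other variation among the animals was tested with the group in the fit, so that the contrast that picked them was not used. Each probe set was fitted on the group and 1 score, and p-values were adjusted over all 31042 probe sets. Of the 15 probe sets 0 passed for the mean of 18 immediate early genes (0% of all probe sets passed), for 12 striatum markers (0%) or for 11 choroid plexus and ependyma markers (0%). In limma an unadjusted p under 0.05 was reached by 631, 1203 and 1133 of all probe sets, and by 0, 0 and 1 of the 15. Within the groups these scores varied little, with an SD of 0.04 to 0.08. The SE of the slope was as wide as 0.76, 1.43 and 1.09 (Tnfrsf25), so these fits could miss a gene that follows a score. For the mean of 19 glucocorticoid-induced genes 0 of 15 passed, with 0.197% of all probe sets called, and 2 of 15 had an unadjusted p under 0.05, as had 3746 of the 31042. For RNA quality 0 of 15 passed, with 0.693% called, and the dimmest Rundc1 probe set came nearest (adjusted p = 0.0680).

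RNA quality was read from the Gapdh and beta-actin controls, as the log2 signal of their 3' probe sets minus that of their 5' ones. It was 0.45 ± 0.07 in exposed animals and 0.39 ± 0.05 in control animals (SD, n = 6 each), with exposed animal 3 highest at 0.59. With it as a term in the fit, the lead differences moved by at most 0.07, for Tnfrsf25. Markers of 13 cell types and regions were read beside the 10 genes. Of 133 measured markers 0 rose and 1 fell, Slco1a4 of the blood-brain barrier (log2 -0.29 ± 0.04, adjusted p = 0.00364). Meningeal and fibroblast markers, of which 0 of 11 passed, had a median of -0.11 and summed to between 23084 and 26421 in exposed animals and 24927 and 28847 in control animals. Endothelial and mural markers, with 1 of 13 lower, summed to between 8591 and 8941 in exposed animals and 8983 and 10011 in control animals. Their part in the differences of the 10 genes was not tested.

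Tslp and Gprc5a are best known from epithelia and Tnfrsf25 from T cells. Of 10 measured epithelial markers 0 passed. Krt19, Cldn4, Cldn7 and Sftpc were the only 4 of these at the floor in all 12 animals. The 10 markers summed to between 624 and 701 in exposed and 671 and 715 in control animals. Of 10 measured T cell and blood markers 0 passed. The T cell receptor genes Cd3d and Cd3g were the only 2 of these at the floor on all arrays. That list, which also names haemoglobin genes, summed to between 14092 and 16361 in exposed and 13381 and 18429 in control animals. The sum is therefore no measure of T cells alone.

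Around the group means the 10 genes did not move as one. Over the 45 pairs of lead probe sets, Pearson's r of the deviations from the group means over 12 animals had a median of -0.08 and ran from -0.71 for Tent5a with Nedd4l to 0.60 for Tnfrsf25 with Frmd6. Among 12663 other genes, the one with the highest r was Gnl2 for Frmd6 (0.94), Lzts2 for Mtcl1 (0.93), Ankdd1a for Tent5a (0.93), Ifit2 for Nedd9 (0.92) and Rps27l for Tnfrsf12a (0.92). It was Timm22 for Tslp (0.91), Dis3l2 for Tnfrsf25 (0.91), Kpna3 for Nedd4l (0.91), Agap3 for Rundc1 (0.88) and Dhx57 for Gprc5a (0.86). These are the highest of a search over many genes on arrays that share noise, and are a description only.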

How the data were processed

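Forebrain RNA of 12 rats was measured on 1 array per animal. Trizol extraction, an RNeasy clean-up and biotin labelling are given in the labels' protocols. The deposited values are linear intensities, 1 for each probe set of an array. The authors' background correction, probe summary and normalization are not given in the sources here. Array medians lay within 0.06 of each other on the log2 scale, under the limit of 0.1 for normalizing again.

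Intensities under the 20th percentile of all values (53.9) were set to it before taking log2. Group was the single term of the limma model, fitted in limma 3.58.1 (R 4.3.3) with lmFit and eBayes with a trend, with Benjamini-Hochberg adjustment across 31042 probe sets (57 array controls left out). Slopes on scores used the group and 1 score per fit. The scripts were tested on simulated data. Platform symbols were looked up by Entrez ID in RefSeq, which changed 0; 436 probe sets with several symbols and 9831 with none were not named. Results per gene use the brightest probe set.

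The genes named are the 10 genes, their direct partners, up to 3 passing genes of each list, and the gene most alike each of the 10. Gprc5b, Gprc5c, Egr1, Egr2, the second Nedd4 probe set and the markers were named after their values were seen. Tnfsf15 and Yap1 had no probe set with their symbol alone. The 10 genes and the lists were chosen with earlier results of these data known. Alternatives were other normalizations, floors, a filter on dim probe sets, eBayes settings, array weights, the animal number as a block or in 2 sets, RNA quality as a term, and leaving out each animal. The number of arrays limits the precision.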

Additional observations from a re-analysis of the deposited data

Results flagged for a closer look

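Looked at were 82 groups of 6 animals, exposed and control. They cover the 15 probe sets of the 10 genes and 26 other genes, which are direct partners or passing genes of the lists. In 4 groups 1 animal had a gap to the nearest other animal above the Dixon 95% critical share of the range. Chance gives about 1 in 20. At the dimmest Tent5a probe set control animal 5 had an intensity of 102.04, with the other control animals between 77.2 and 83.7. At Mark2 exposed animal 5 had 2137.25, with the others between 1516 and 1662. At Tent5b exposed animal 3 had 75.98, with the others between 55.6 and 62.9. At Smurf1 exposed animal 6 had 462.39, with the others between 523 and 558.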

How the results depend on the processing

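In the fit of exposed against control animals, 610 probe sets were higher and 186 lower. With the animal number as a replicate block the counts were 359 and 76, with array weights 313 were lower and with RNA quality as a term 72 were lower. With 1 animal left out the higher count ran from 453 to 622 and the lower count from 103 to 182, lowest without control 3 (103), control 5 (112), control 6 (117) or exposed animal 1 (106). Slopes on the glucocorticoid score, called at 61 probe sets, were called at 27 after quantile normalization, 37 with the higher floor, 32 without a trend, 0 with the replicate block and 6 to 39 with any 1 animal left out. Slopes on RNA quality, called at 215, were called at 5 after quantile normalization, 0 with the replicate block and 0 to 229 with 1 animal left out. Without exposed animals 3, 4 or 6 that count was 0, 9 or 36, and without control animals 1 to 6 it was 103, 12, 24, 124, 21 and 18. In all of these slope fits 0 of the 15 probe sets of the 10 genes were called. The cause of these shifts was not tested.

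Of 345 values of the 15 probe sets under the alternatives, 341 moved by less than 1 SD between animals. The sign changed only at the dimmest Tent5a probe set. The dimmest Tent5a probe set, at -0.03, ran from -0.06 to 0.03. The values that moved further were Gprc5a (0.16) and Tslp (0.00) at the higher floor, and the mean over probe sets for Rundc1 (0.19) and Tent5a (0.19). All these fits use the animals on which the genes were picked, so they describe the values and give no separate support.

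Numbers shared between the groups were not seen to pair single animals. Deviations of same-numbered animals correlated at -0.08 to 0.16, and 2 of 6 exposed animals correlated best with their own number. The glucocorticoid score did differ between the number sets in both groups. In exposed animals it was 9.13 to 9.28 for numbers 1 to 3 and 9.46 to 9.53 for 4 to 6. In control animals it was 8.90 to 8.99 and 9.11 to 9.18, so slopes on this score also hold that difference. With the block, Traf3 (adjusted p = 0.124), Jak2 (0.0611), Pxn (0.0860), Cish (0.0941), Tead1 (0.108) and Smurf1 (0.168) had no call and Smad3 and Traf5 kept theirs. Sgk1 passed with the number sets (adjusted p = 0.0185) or RNA quality (0.0381) as a term, and Lats2 without dim probe sets (0.0383) or without exposed animal 6 (0.0297).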
